A study of Mus musculus with 2 samples.

Results

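The genes described here carry the first steps of interferon signalling: the ligand gene Ifnb1, the receptor chains Ifnar1, Ifnar2, Ifngr1 and Ifngr2, the kinases Jak1, Jak2 and Tyk2, and the feedback inhibitors Socs1 and Socs3. The 10 genes were picked by symbol, and all 10 were found, each on 1 of the 54680 loci of the deposited table. CT26 is a mouse colon cancer line. In 1 group (CT26shSetdb1) a lentivirus carried a short hairpin RNA against Setdb1, the gene of an enzyme that methylates lysine 9 of histone H3. The sample title calls these cells differentiated through the knockdown, so cell state and knockdown differ together between the groups. The other group (CT26shCtrl) received lentivirus with the empty vector and is given as wild type, so both groups were infected and both were cultured for 6 days. Each group had 1 RNA sequencing library, so no difference below has a replicate check and no p-value is given; the labels name 1 construct and do not say whether clones or mixed cells were used.

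Type I interferons such as interferon beta bind a receptor of an IFNAR1 and an IFNAR2 chain, to which the kinases TYK2 and JAK1 are attached. Interferon gamma binds IFNGR1 and IFNGR2, which carry JAK1 and JAK2. The kinases phosphorylate STAT proteins, which enter the nucleus and switch on interferon-stimulated genes through interferon-stimulated response elements and gamma-activated sites. SOCS1 and SOCS3 are among the induced products and block the kinases and receptors, closing a feedback loop.

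Reads were recovered as whole numbers from the deposited FPKM values (fragments scaled by gene length and by 1 depth shared by both libraries). The totals were 18421604 in CT26shCtrl and 19045830 in CT26shSetdb1. Ratios of reads below are taken over these totals, while log2 ratios of (FPKM + 1) are not. Scaling by own totals would shift a log2 ratio of FPKM by -0.048. Setdb1, the targeted gene, had 1340 reads in CT26shCtrl and 317 in CT26shSetdb1, although its model overlaps Cers2. Of 10 intestinal epithelial markers, 3 reached 1 FPKM (Krt18, Krt19 and Krt20), while Epcam, Cdh1 and Cdx1 had 0 reads in both libraries. The summed level of these 10 markers was 43.8 FPKM in CT26shCtrl and 128 FPKM in CT26shSetdb1, and its part in the results below was not tested. Krt18 (37.8 to 90.0 FPKM) and Krt20 (5.07 to 35.6 FPKM) carried this sum. Krt19 (1 to 53 reads), Cdx2 (5 to 18) and Vil1 (1 to 7) also had more reads in CT26shSetdb1. Krt8 (7 and 8 reads) was near equal, and Lgals4 (28 and 23 reads) was not higher. None of 10 leukocyte markers reached 1 FPKM, with 26 and 27 reads in all, and 3 endothelial markers had 0 reads. Of 4 fibroblast markers 3 reached 1 FPKM, led by Col1a2, and their summed level was 172 FPKM in CT26shCtrl and 120 FPKM in CT26shSetdb1. That sum is carried by Col1a2 and Col1a1, while Pdgfra went from 94 to 333 reads and Dcn from 23 to 33.

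Of the 10 genes, 9 reached 1 FPKM in at least 1 library and Ifnb1 did not. In CT26shCtrl these 9 lay between 2.54 FPKM for Jak2 and 8.91 FPKM for Ifngr1. In CT26shSetdb1 they spread out, from 0.998 FPKM for Jak2 to 17.8 FPKM for Socs3. On the scale of log2 ratios of (FPKM + 1), knockdown over control, 6 of the 9 were above 0 and 3 below, with a median of 0.21. Across all 10671 loci that passed the same filter the median was -0.00039, with quartiles of -0.36 and 0.38, and 49.6% of them were above 0. A gene was counted as different at a 2-fold change on this scale. Only Socs3, 1 of the 9, was 2-fold higher, beside 6.81% of all loci tested, and 0 of the 9 were 2-fold lower, beside 4.85% of all loci. The added 1 FPKM understates the change of genes at a few FPKM. By the ratio of reads, each over its library's total, 3 of the 9 were 2-fold higher (Socs3, Ifngr2 and Socs1) beside 10.3% of all loci, and 1 was 2-fold lower (Jak2) beside 9.60%. These shares among 9 genes chosen by name rest on few genes, and nothing particular to the group is read from them. In bulk RNA, fewer cells with a transcript and less of it per cell cannot be told apart.

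**Figure D1:**
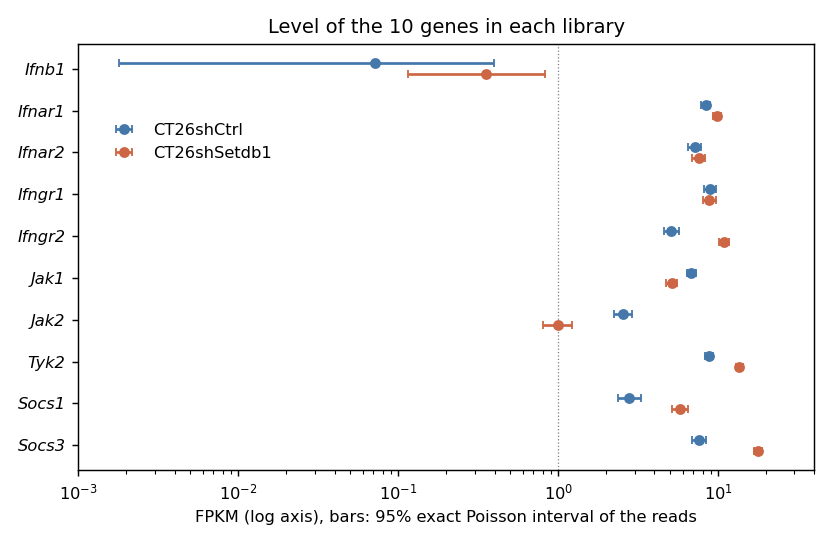
Level of each of the 10 genes in FPKM (log axis) in CT26shCtrl (blue) and CT26shSetdb1 (orange), with 95% exact Poisson intervals of the reads and a dotted line at 1 FPKM. Ifnb1 stayed under 1 FPKM in both libraries, and Socs3 was the highest of the 10 in CT26shSetdb1 at 17.8 FPKM.

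Within CT26shCtrl the order of levels was shallow at the top. Ifngr1, Tyk2, Ifnar1, Socs3, Ifnar2 and Jak1 followed each other from 8.91 to 6.78 FPKM, and the Poisson intervals of neighbours in this order overlapped. Ifngr2 (5.10 FPKM) lay below them, and Socs1 (2.79 FPKM) and Jak2 (2.54 FPKM) lower still, again with overlapping intervals. In CT26shSetdb1 Socs3 (17.8 FPKM) and Tyk2 (13.6 FPKM) stood above the receptors without overlap. Ifngr2 moved from the seventh place to the third, at 10.8 FPKM, and its interval overlapped that of Ifnar1 at 9.81 FPKM. Jak2 was last among the 9, at 0.998 FPKM with an interval of 0.806 to 1.22 FPKM. These intervals cover counting error only, not spread between cultures, and may be too narrow because reads copied by PCR are not independent molecules.

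The ligand gene Ifnb1 (ENSMUSG00000048806, chromosome 4, 88522025 to 88522774, minus strand) had 1 read in CT26shCtrl and 5 in CT26shSetdb1, or 0.0712 and 0.356 FPKM. The read ratio of 4.84 had a counting interval of 0.541 to 229, so a difference was not detectable at this depth. Of 33 other interferon genes, which included the alpha family, Ifne, Ifnk, Ifnz, Ifng, Ifnl2 and Ifnl3, 32 had 0 reads in both libraries. A count of 0 allows up to 3 reads in a library, a one-sided 95% limit for counting error only, and alpha genes are near-identical copies whose shared reads could go uncounted. The exception was Gm13283 (chromosome 4, 88760119 to 88761581), a predicted gene that lies in the type I interferon cluster, with 10 reads in CT26shCtrl and 31 in CT26shSetdb1. Its log2 ratio was 0.64 and its read ratio 2.998 (1.43 to 6.86), and the authors' table gives it no protein match. In FPKM it was at 0.365 and 1.13.

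The genes that switch on Ifnb1 were better represented. Of 18 such genes found, 17 reached 1 FPKM, and their median log2 ratio was 0.14. Of the 17, 5 were 2-fold higher and 0 were 2-fold lower, beside 6.81% and 4.85% of all loci tested. Irf7, Ddx58 and Ifih1 of this list are also among the interferon-stimulated genes given below. Irf7, the interferon-inducible regulatory factor, had the highest log2 ratio at 4.91, from 638 to 21227 reads. Rela, the NF-kappaB subunit that binds the Ifnb1 enhancer, had the lowest at -0.64, from 77.2 to 49.3 FPKM. Tbk1, the kinase that activates IRF3, had 352 reads in each library.

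The type I receptor genes were close to equal in both libraries. Ifnar1 (ENSMUSG00000022967, chromosome 16, 91485238 to 91507441, plus strand), which encodes the chain that carries TYK2, had 930 reads (8.36 FPKM) in CT26shCtrl and 1092 reads (9.81 FPKM) in CT26shSetdb1. The log2 ratio of Ifnar1 was 0.21 and its read ratio 1.14 (1.04 to 1.24). Ifnar2 (ENSMUSG00000022971, chromosome 16, 91372783 to 91405589, plus strand), which encodes the chain that binds ligand most tightly and carries JAK1, had 444 reads (7.12 FPKM) and 472 reads (7.57 FPKM). This is a log2 ratio of 0.08, and the read ratio of 1.03 had an interval that held 1 (0.901 to 1.17). The ratio of Ifnar1 to Ifnar2, in FPKM, was 1.17 in CT26shCtrl and 1.297 in CT26shSetdb1. The change in that ratio, which does not depend on how the libraries are scaled, was 1.10 with an exact interval of 0.942 to 1.29. Ifnar2 has 5 coding transcripts in GENCODE, and soluble and membrane forms are not separated by a value per gene.

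The chains of the interferon gamma receptor differed from each other. Ifngr1 (ENSMUSG00000020009, chromosome 10, 19591949 to 19610229, plus strand), the ligand-binding chain, had 475 reads (8.91 FPKM) in CT26shCtrl and 469 reads (8.79 FPKM) in CT26shSetdb1. The log2 ratio of Ifngr1 was -0.02 and its read ratio 0.955 (0.839 to 1.09). Ifngr2 (ENSMUSG00000022965, chromosome 16, 91547072 to 91565623, plus strand), the chain that brings JAK2 to the complex, had 360 reads (5.10 FPKM) and 764 reads (10.8 FPKM). The read ratio of Ifngr2 was 2.05 (1.81 to 2.33) and its log2 ratio 0.95, and it lay at percentile 92.5 of all loci tested. Per length, Ifngr2 was at 0.573 of the Ifngr1 level in CT26shCtrl and at 1.23 of it in CT26shSetdb1. That ratio changed 2.15-fold, with an exact interval of 1.79 to 2.58 that covers counting error in these libraries. With a pseudocount of 0.1 the log2 ratio of Ifngr2 was 1.07, past the 2-fold line.

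**Figure D2:**
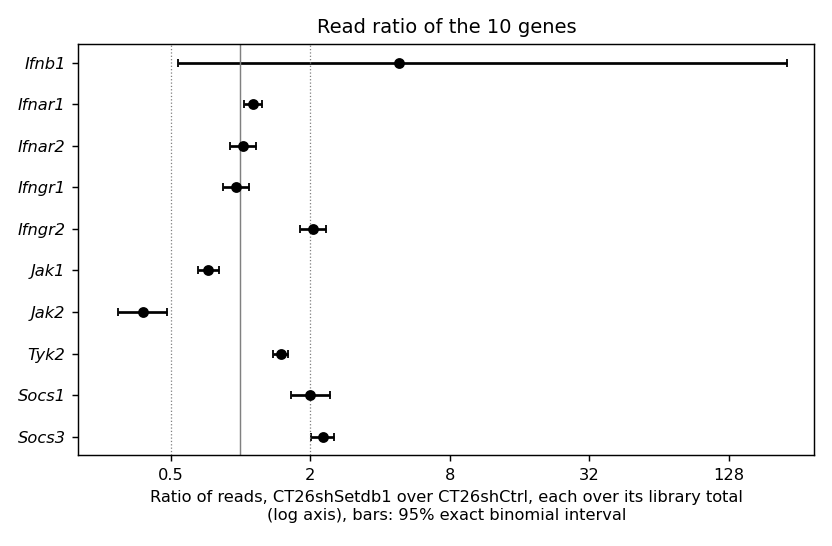
Ratio of reads, knockdown over control, each over its library's total (log axis), with 95% exact binomial intervals; dotted lines mark 2-fold. Of the 9 genes at 1 FPKM or more, 5 had intervals above 1 (Ifnar1, Ifngr2, Tyk2, Socs1 and Socs3), 2 below 1 (Jak1 and Jak2) and 2 that held 1 (Ifnar2 and Ifngr1), beside 35.2% of all loci tested above 1 and 40.6% below.

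Ifnar2, Ifnar1 and Ifngr2 stand in a row on chromosome 16 together with Il10rb, the shared chain of the interleukin 10 and interferon lambda receptors, within 193 kb. In the 356 kb from Ifnar2 to Cryzl1, 9 of 20 loci reached 1 FPKM. The 4 receptor genes and Tmem50b had log2 ratios above 0, and Il10rb, from 318 to 421 reads, was at 0.34. The genes farther along were all below 0. Gart, a purine synthesis enzyme, was at -0.51, Son, a splicing cofactor, at -0.71, Donson at -0.16 and Cryzl1 at -0.61. The read ratios of Ifnar2, Tmem50b (1.08, 0.907 to 1.29) and Donson (0.828, 0.661 to 1.04) had intervals that held 1. Donson overlaps Son, and the strand setting of the counting is not given, so shared reads could belong to either gene. Ifngr2 was the highest of the 9. Its change exceeded that of Ifnar1 by a factor of 1.81 (1.55 to 2.11).

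**Figure D3:**
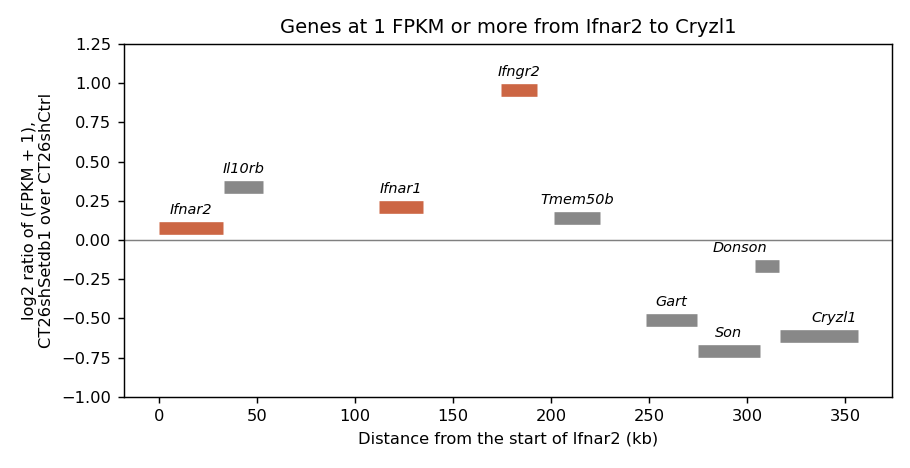
Log2 ratio of (FPKM + 1), knockdown over control, of the 9 genes at 1 FPKM or more, drawn as bars over their length against distance from the start of Ifnar2 in kb; orange bars are Ifnar2, Ifnar1 and Ifngr2. Ifngr2 at 0.95 lies above its neighbours, and Gart, Son, Donson and Cryzl1 lie below 0. The read ratio intervals of Ifnar2, Tmem50b and Donson held 1.

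Across 12 class II cytokine receptor genes, the family to which all 4 interferon receptor chains belong, 6 reached 1 FPKM, and their median log2 ratio was 0.18. Of the 6, 0 were 2-fold higher and 0 were 2-fold lower, beside 6.81% and 4.85% of all loci tested. Besides the interferon chains and Il10rb, these included F3, tissue factor, from 5.51 to 6.27 FPKM (log2 ratio 0.16). Ifnlr1, the specific chain of the interferon lambda receptor, had 0 reads in CT26shCtrl and 1 in CT26shSetdb1. Il20rb had 2 and 7 reads, and Il10ra, Il20ra, Il22ra1 and Il22ra2 had 0 in both.

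The kinases did not move together. Tyk2 (ENSMUSG00000032175, chromosome 9, 21104068 to 21131243, minus strand) had 1132 reads (8.80 FPKM) in CT26shCtrl and 1746 reads (13.6 FPKM) in CT26shSetdb1. For Tyk2 the read ratio was 1.49 (1.38 to 1.61) and the log2 ratio 0.57. Jak1 (ENSMUSG00000028530, chromosome 4, 101152367 to 101265282, minus strand), the kinase used by both receptor types, had 918 reads (6.78 FPKM) and 692 reads (5.11 FPKM). Its log2 ratio was -0.35 and its read ratio 0.729 (0.660 to 0.806), which is lower in CT26shSetdb1 but near the lower quartile of all loci. Jak2 (ENSMUSG00000024789, chromosome 19, 29251828 to 29313080, plus strand), the kinase of the gamma receptor and of many hormone receptors, had 239 reads (2.54 FPKM) and 94 reads (0.998 FPKM).

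Jak2 had the lowest ratio of the 10 genes. Its log2 ratio was -0.82, at percentile 7.34 of all loci tested, and its read ratio was 0.380 (0.296 to 0.485). The log2 ratio was -1.26 with a pseudocount of 0.1 and -1.39 from the reads alone, both past 2-fold. Per length, the balance between the kinases differed between the libraries. Tyk2 was at 1.298 times the Jak1 level in CT26shCtrl and at 2.66 times in CT26shSetdb1, a change of 2.05 (1.80 to 2.32). Tyk2 was at 3.47 times the Jak2 level in CT26shCtrl and at 13.6 times in CT26shSetdb1, a change of 3.92 (3.04 to 5.09). Jak1 to Jak2 changed by 1.92 (1.47 to 2.51). Jak3, the kinase of receptors with the common gamma chain, was at 6.53 FPKM and 9.10 FPKM, a log2 ratio of 0.42. The model of Tyk2 overlaps an antisense locus with 0 and 1 reads, and those of Jak1 and Ifnar2 overlap loci with 0 reads in both libraries. Ifnar1 shares its protein match with 1 pseudogene, which had 0 reads.

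Both feedback inhibitors were higher in CT26shSetdb1. Socs3 (ENSMUSG00000053113, chromosome 11, 117966079 to 117970047, minus strand), which blocks JAK1, JAK2 and TYK2 at receptors of the gp130 family, had 411 reads (7.59 FPKM) in CT26shCtrl and 962 reads (17.8 FPKM) in CT26shSetdb1. The log2 ratio of Socs3 was 1.13, at percentile 94.7 of all loci tested, and its read ratio was 2.26 (2.01 to 2.55). Socs1 (ENSMUSG00000038037, chromosome 16, 10782240 to 10785536, minus strand), the main brake on interferon receptors, had 152 reads (2.79 FPKM) and 315 reads (5.78 FPKM). Its log2 ratio was 0.84, at percentile 90.2, and its read ratio was 2.004 (1.65 to 2.45). With a pseudocount of 0.1 its log2 ratio was 1.03, past the 2-fold line. Socs3 exceeded Socs1 in both libraries, by 2.72 times in CT26shCtrl and 3.07 times in CT26shSetdb1. The change in that ratio was 1.13, with an interval that held 1 (0.895 to 1.42).

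The promoters of the members whose reads were 2-fold higher are shown to compare the letters STAT complexes are known to recognise. Sequences are from RefSeq promoter windows on GRCm38.p6, of 250 bases before to 50 after the RefSeq start, and all 10 genes matched. They were searched on both strands for the gamma-activated site TTCNNNGAA, which reads the same on both strands, and for the response element core, a pair of GAAA blocks with any 2 bases between them. Capitals mark the matches. The stretches are Socs1 from 150 to 1 bases upstream (chr16:10785537-10785686, minus strand), Socs3 from 250 to 101 bases upstream (chr11:117969467-117969616, minus strand) and Ifngr2 from 150 to 1 bases upstream (chr16:91546909-91547058, plus strand).
Socs1: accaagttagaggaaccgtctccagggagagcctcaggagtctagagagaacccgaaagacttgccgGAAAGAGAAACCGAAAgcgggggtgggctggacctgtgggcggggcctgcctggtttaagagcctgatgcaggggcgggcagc
Socs3: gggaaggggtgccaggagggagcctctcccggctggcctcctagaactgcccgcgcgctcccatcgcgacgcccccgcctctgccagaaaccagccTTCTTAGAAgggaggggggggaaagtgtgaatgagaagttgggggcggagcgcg
Ifngr2: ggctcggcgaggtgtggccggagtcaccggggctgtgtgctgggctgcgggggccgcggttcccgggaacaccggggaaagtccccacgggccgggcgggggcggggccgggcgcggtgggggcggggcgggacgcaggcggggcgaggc

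Socs1 held 2 overlapping matches to the response element core, starting 83 and 77 bases upstream of the RefSeq start. Socs3 held 1 gamma-activated site match, starting 154 bases upstream of the RefSeq start, while its coding transcript in GENCODE starts farther downstream. The stretch printed for Socs3 lies inside its annotated gene model, which reaches 117970047, and so is not upstream of the whole model. No match to either motif lay in the Ifngr2 window, which says only that these letters are not there. Among the other members, Ifnar1 and Ifnar2 each held 1 gamma-activated site match, shown with 10 bases on either side (chr16:91485200-91485228 and chr16:91372559-91372587, plus strand).
Ifnar1: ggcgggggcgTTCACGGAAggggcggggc
Ifnar2: tgccaaggccTTCCTGGAAgaagagagta

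In all, 3 of the 10 members held a gamma-activated site match and 1 a response element match. Among all 32851 windows of 300 bases, 8.30% held the former and 3.44% the latter. The Ifnb1, Ifngr1, Jak1, Jak2 and Tyk2 windows held neither. A match is a description of the sequence, and binding was not measured.

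The rest of the SOCS family gave a mixed picture. Of the 8 genes, Socs1 and Socs3 included, 6 reached 1 FPKM, and their median log2 ratio was 0.39. Among the 6, 1 was 2-fold higher and 0 were 2-fold lower, beside 6.81% and 4.85% of all loci tested. Socs5 was the highest in level, at 17.1 FPKM in CT26shCtrl and 29.99 FPKM in CT26shSetdb1, a log2 ratio of 0.77. Socs7 (877 and 881 reads) and Socs4 (156 reads in each) were near equal, and Socs6 had a log2 ratio of -0.32. Socs2 and Cish, which answer to growth hormone and STAT5 signals, stayed under 1 FPKM and went opposite ways. Socs2 had 161 and 67 reads, a read ratio of 0.403 (0.298 to 0.538), and Cish had 7 and 49 reads, a read ratio of 6.77 (3.05 to 17.7). Socs2, Socs6 and Cish share the authors' protein match with other loci, so their values are less certain.

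**Figure D4:**
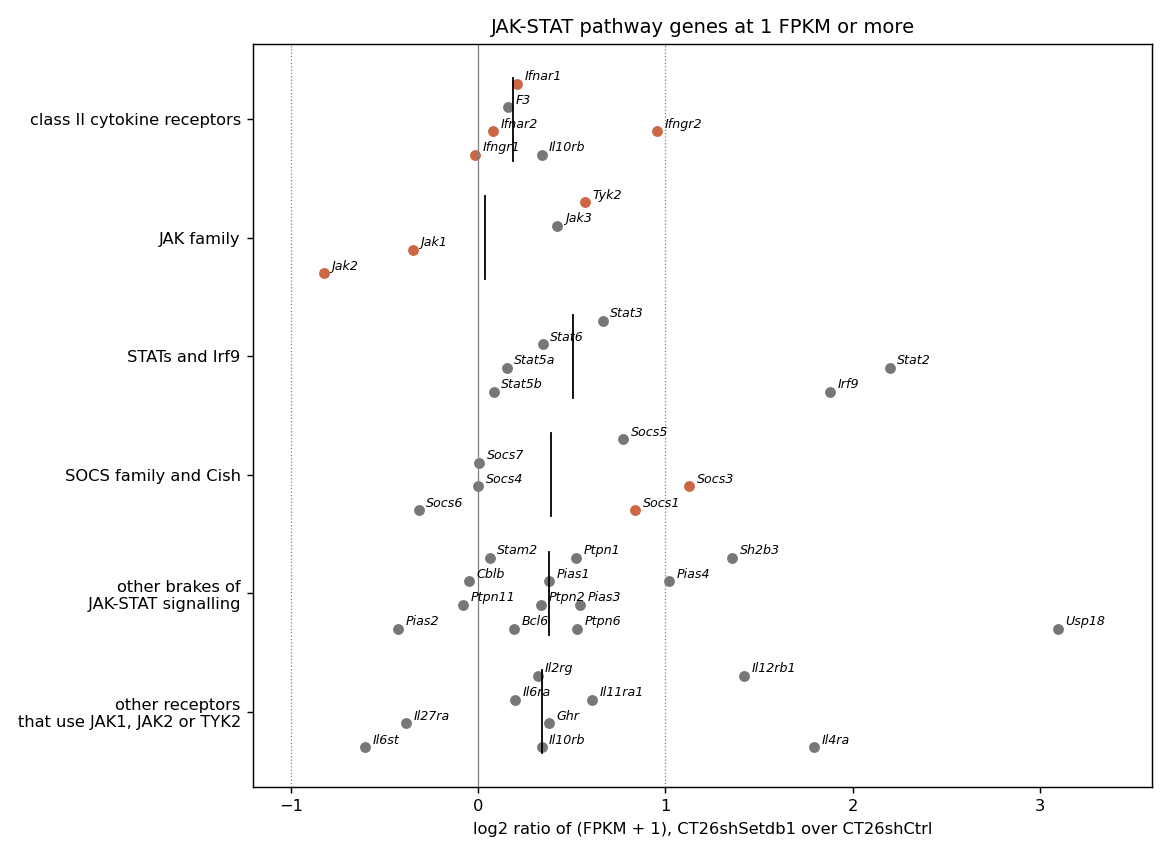
Log2 ratio of (FPKM + 1), knockdown over control, of each gene at 1 FPKM or more in 6 lists of the pathway; orange points are the interferon receptors, kinases and SOCS genes described here, black lines are list medians and dotted lines mark 2-fold. Jak2 at -0.82 is the lowest point, and Usp18 at 3.10, Stat2 at 2.20 and Irf9 at 1.88 lie far above the receptors and kinases.

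Downstream of the kinases, 7 genes for STAT proteins and Irf9 were examined. Of these, 6 reached 1 FPKM, all 6 with ratios above 0, beside 49.6% of all loci tested, and a median log2 ratio of 0.50. The read ratios of Stat5a (1.14, 0.948 to 1.37) and Stat5b (1.03, 0.946 to 1.12) had intervals that held 1. Among the 6, 2 were 2-fold higher and 0 were 2-fold lower, beside 6.81% and 4.85% of all loci tested. Stat2 went from 5.21 to 27.5 FPKM (log2 ratio 2.20) and Irf9 from 6.34 to 26.0 FPKM (1.88). Their proteins are parts of the transcription complex that type I interferons activate. Stat3, the main partner of gp130 receptors, was at 0.66, Stat6 at 0.34, Stat5a at 0.15 and Stat5b at 0.08, and Stat4 had 0 reads. Irf9 overlaps Rnf31 and Stat3 overlaps Stat5a, and the strand setting of the counting is not given, so shared reads could belong to either gene. The same holds for Irf7, Jak3, Stat6 and Sh2b3, which also overlap a gene with reads, and Irf9 and Usp18 share a protein match with another locus.

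Of 14 other brakes of the pathway, 13 reached 1 FPKM, 10 of them with ratios above 0, beside 49.6% of all loci tested. Their median log2 ratio was 0.38. Among the 13, 3 were 2-fold higher and 0 were 2-fold lower, beside 6.81% and 4.85% of all loci tested. Usp18, which displaces JAK1 from IFNAR2, went from 480 to 4501 reads, a log2 ratio of 3.10. Sh2b3, an adaptor that restrains JAK2, was at 1.36, and Pias4, a SUMO ligase that binds STAT proteins, at 1.02. Pias2 was the lowest at -0.43. The phosphatase genes Ptpn1 (0.52), Ptpn2 (0.33), Ptpn6 (0.53) and Ptpn11 (-0.08) were all within 2-fold.

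A list of 25 receptor genes that signal through JAK1, JAK2 or TYK2 included Il10ra, Il10rb and Ifnlr1, already counted among the class II receptors. Of the 25, 9 reached 1 FPKM, and their median log2 ratio was 0.34, the value of Il10rb. Among the 9, 2 were 2-fold higher and 0 were 2-fold lower, beside 6.81% and 4.85% of all loci tested. Il4ra, the interleukin 4 receptor chain, was highest, from 455 to 1853 reads (log2 ratio 1.79), and Il12rb1, a chain that pairs with TYK2, was at 1.42. Il6st, which encodes gp130, was lowest at -0.60, from 11.2 to 7.003 FPKM.

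Genes that interferons act on are given for scale. The 2-fold counts of the lists that follow stand beside 6.81% higher and 4.85% lower of all loci tested. Of 20 interferon-stimulated genes 19 reached 1 FPKM, and 17 were 2-fold higher and 0 lower. The median log2 ratio of the 19 was 2.56, from Ifit2 at 0.04 to Irf7 at 4.91. Ifit1, Ifit3, Rsad2, Mx2, Ifi44, Ifih1, Cxcl10, Zbp1 and Cmpk2 were under 1 FPKM in CT26shCtrl and passed the filter only through CT26shSetdb1. Such passing favours high ratios, and without the filter the median was 2.29. Of 17 genes known for gamma-activated sites 11 reached 1 FPKM, and 8 were 2-fold higher and 0 lower. The median of the 11 was 1.18, from Nlrc5 at 0.70 to Igtp at 2.34. Gbp3 and Gbp7 passed the filter only through CT26shSetdb1, and without the filter the median was 1.05. Igtp overlaps Irgm2 and belongs to a family of close copies, so its value is less certain. Of 15 genes raised by STAT3, a list that includes Socs3, 13 reached 1 FPKM, with a median of 0.30. Among the 13, 4 were 2-fold higher and 2 lower, from Myc at -1.48 to Il4ra at 1.79. Bcl3, 1 of those higher, passed the filter only through CT26shSetdb1, and Saa3, 1 of those lower, only through CT26shCtrl. No receptor or kinase gene of the 10 reached the median of either interferon-responsive list. Socs3, at 1.13, was below the median of the interferon-stimulated genes. Its counting range of 0.975 to 1.28 held the median of the genes with gamma-activated sites, so its place against that list was not resolved. The difference between the lists was not tested.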

How the data were processed

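RNA sequencing of CT26 cells, 1 library a group, was analysed. The authors deposited FPKM values per locus, per the file headers. HISAT2, featureCounts 1.5.0-p3, CASAVA and GRCm38 are named in the submitters' processing notes; strand setting and annotation are not given in the sources used here. The values share 1 depth, 18731117 reads, in both libraries, so FPKM times gene length over the value of 1 read gave whole reads for 100% of values above 0 (tolerance 1e-06). Totals were 18421604 and 19045830 reads, a ratio of 1.03. All 10 members had the position of GENCODE M21.

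Log2 ratios of (FPKM + 1) were computed with a pseudocount of 1, a filter of 1 FPKM in at least 1 library and a 2-fold threshold. Intervals are 95% exact: Poisson for levels, Clopper-Pearson for read ratios, conditional odds ratio for the 7 pairs of genes compared. The rule for named genes took all members, Setdb1, every gene of the SOCS, JAK, STAT and class II receptor lists, and the highest and lowest of the other 9 of 13 lists; others, such as Tbk1, Sh2b3 and the neighbours, were named after their values were seen. Members and lists were chosen with earlier results of these data known. 1 listed gene is not reported here and was left out of the counts of its list. Calculations were tested on simulated data. Alternatives were another pseudocount, filters, 4 scalings, other thresholds, coding genes only and, added later, reads without a pseudocount. The tools were scipy 1.17.1, numpy 2.4.6, pandas 2.3.3 and matplotlib 3.10.9 under Python 3.11.15.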

Additional observations from a re-analysis of the deposited data

How the results depend on the processing

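No paired analysis was possible because neither group had a second library, which also left none to leave out. The ratios from reads without a pseudocount were an alternative chosen after seeing the data. Of 219 alternative values, 181 moved by less than counting error or, for counts, by less than 1.5 times. The other 38 moved further, and 0 changed the direction of a value past 2-fold. For a list median, the range used ran from the median of its genes' lower counting limits to the median of their upper limits. That range is not a counting interval of the median itself. Of 60 alternative log2 ratios of the 10 genes, 56 stayed within counting error, and none changed sign. The 4 that moved were Jak2 and Ifnb1, both low in level: Jak2 was at -1.26 with a pseudocount of 0.1 and -1.39 from reads, and Ifnb1 at 1.41 and 2.27. Among the scalings, leaving out the 100 highest genes shifted the median of all loci most, to -0.0522. The JAK family median, at 0.04, fell just below 0 from reads and under each scaling but the median ratio. It was lowest, at -0.0153, without the 100 highest genes, and stayed within the range of its genes' median limits (-0.089 to 0.163).

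The 1 gene of the 9 counted as 2-fold higher became 3 with a pseudocount of 0.1, from reads, or at 1.5-fold, and 0 at 4-fold; the 0 lower became 1 under the first 3 of these. Over all loci, 727 higher and 518 lower became 1134 and 870 with a pseudocount of 0.1, 1098 and 1024 from reads, 1804 and 1523 at 1.5-fold, and 116 and 56 at 4-fold. Setdb1, at -1.72, was at -2.04 with a pseudocount of 0.1 and -2.13 from reads.

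A filter at 5 FPKM, which tests fewer genes, moved the median of the members to 0.39, of the JAK family from 0.04 to 0.42, of the SOCS family to 0.81, of STAT genes and Irf9 to 0.66, of Ifnb1 inducers to 0.60, of interferon-stimulated genes to 2.86, of other JAK-using receptors to 0.88, of Ifnb1 neighbours from -0.35 to -0.47 and of receptor cluster neighbours from -0.17 to -0.51. Without a filter the SOCS median was 0.21 and that of interferon-stimulated genes 2.29. With a pseudocount of 0.1 and from reads, interferon-stimulated genes were at 3.17 and 3.20, genes with gamma-activated sites at 1.58 and 1.56, and the 1 ligand tested, Gm13283, at 1.40 and 1.58. The smaller pseudocount enlarges the ratios of low genes by construction. Depth limits Ifnb1, with 1 and 5 reads.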

Other observations

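The surroundings of Ifnb1 on chromosome 4 gave values that fall in no comparison above. In the 785 kb from Hacd4 to Mtap, which holds 58 loci and the type I interferon cluster, 13 loci had reads. Hacd4, a fatty acid elongation enzyme gene named here after its values were seen, had 99 reads in CT26shCtrl and 1 in CT26shSetdb1, a read ratio of 0.00977 with a counting interval of 0.000245 to 0.0557. Its annotated model overlaps Focad, which had 845 and 691 reads. Mtap, a methionine salvage enzyme gene at the other end, had 1927 and 1379 reads. Cdkn2a and Cdkn2b, cell cycle inhibitor genes next to Mtap, had 0 reads in both libraries. Of the other neighbours, Klhl9 had 180 and 208 reads and Mllt3 366 and 198. AL805899.1, a long noncoding RNA locus between Ifnb1 and Mtap named after its values were seen, had 24 and 67 reads (1.18 and 3.29 FPKM), a log2 ratio of 0.98.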
